A study of Homo sapiens with 6 samples.

Results

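The genes described here are 9 genes of MHC class I antigen presentation: HLA-B, HLA-C, HLA-E, HLA-F, B2M, TAP1, TAP2, TAPBP and NLRC5. They were chosen by name, and each of the 9 symbols was found once among the 58735 genes of the deposited expression table. Expression was measured by RNA-seq of polyadenylated RNA from U251, an established human glioblastoma cell line, in 2 groups of 3 cultures. The control group, NC, received sterile deionized water, and the TNF-α group received recombinant human TNF-α at 10 ng/mL, both for 24 h. The submitters describe the replicates as independent biological replicates, and all of them come from this 1 line, which carries no stated transgene or deletion. The comparison addresses what this low dose of the inflammatory cytokine does to the transcriptome of glioblastoma cells.

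MHC class I molecules carry short peptides from proteins made inside the cell to its surface, where CD8 T cells and natural killer cells read them. A class I molecule is a heavy chain, encoded by an HLA gene, bound to the invariant light chain β2-microglobulin. The peptides are cut by the proteasome, carried into the endoplasmic reticulum by the TAP transporter, and loaded onto the heavy chain while tapasin holds it beside the transporter. NF-κB, interferon regulatory factors and the NLRC5 enhanceosome are the known regulators of these genes, and glioma cells are known for variable class I levels.

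TNF-α replicates 2 and 3 stood apart from the other 4 libraries in their overall composition. Ribosomal protein genes took 7.32% and 6.28% of their reads, against 2.63% to 2.91% elsewhere, and genes with over 8 kb of exon took 16.6% and 17.9%, against 28.8% to 29.1%. A shift of 1 log2 unit or more from the NC mean was seen for 3592 and 2663 of 12136 tested genes in these 2 libraries and for 152 genes in the remaining treated library. Because both libraries are in the treated group, this shift and the treatment cannot be told apart in them, and values are therefore also given with TNF-α replicate 1 as the sole treated library and without it. Reads in genes ranged from 31992167 to 37897044 per library. Of 8 markers of U251 as a glial tumour line, 7 reached 1 FPKM in at least 1 library, among them VIM, NES and SOX2, while S100B stayed at or below 0.168 FPKM. Within this list GFAP, the astrocyte filament, fell from 8.24 to 2.19 FPKM (limma adjusted p = 0.021), and SOX2 (62.0 and 36.9 FPKM) and VIM (343 and 753 FPKM) differed in mean without passing the threshold. In TNF-α replicates 1, 2 and 3, SOX2 was at 57.8, 22.6 and 30.4 FPKM, against 58.9 to 66.3 in NC. VIM was at 434, 974 and 850 FPKM, against 325 to 362 in NC. Markers of leukocytes and professional antigen-presenting cells, 12 genes, summed to 0.721 to 2.13 FPKM per library, and PTPRC, the pan-leukocyte marker, was at 0 in all 6. The 8 endothelial, epithelial and neuronal markers summed to 0.571 to 1.38 FPKM. These sums are small beside the levels of the class I genes given below.

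The 9 genes lie in 3 places of the genome (GRCh38). HLA-F (6:29722775-29738528, plus strand), HLA-E (6:30489467-30494205, plus), HLA-C (6:31268749-31272130, minus), HLA-B (6:31269491-31357188, minus), TAP2 (6:32821833-32838780, minus), TAP1 (6:32845209-32853978, minus) and TAPBP (6:33299694-33314387, minus) all lie within 3.59 Mb of chromosome 6, the MHC region. B2M is on chromosome 15 (15:44711487-44718877, plus) and NLRC5 on chromosome 16 (16:56989485-57083531, plus). The transcription starts of 7 genes were in the RefSeq promoter set for GRCh38.p14, and HLA-E and NLRC5 had no entry there.

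The stretches upstream of HLA-B, HLA-C and B2M are shown because the heavy chains and their light chain hold a κB consensus at different positions. Each spans positions −200 to −41 before the start, is 160 bases long and is written 5′ to 3′ on the gene's own strand. They lie at chr6:31357220-31357379 (minus), chr6:31272133-31272292 (minus) and chr15:44711317-44711476 (plus). Capitals mark matches to the κB consensus, the motif of NF-κB, and to the interferon-stimulated response element (ISRE, searched as GAAA, any 2 bases and GAAA), on either strand.
HLA-B: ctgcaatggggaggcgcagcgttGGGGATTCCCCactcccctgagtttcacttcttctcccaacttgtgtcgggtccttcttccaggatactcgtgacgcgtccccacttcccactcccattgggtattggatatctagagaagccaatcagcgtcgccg
HLA-C: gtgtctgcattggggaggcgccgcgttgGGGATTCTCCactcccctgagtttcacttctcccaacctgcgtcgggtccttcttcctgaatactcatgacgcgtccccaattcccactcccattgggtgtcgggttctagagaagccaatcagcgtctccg
B2M: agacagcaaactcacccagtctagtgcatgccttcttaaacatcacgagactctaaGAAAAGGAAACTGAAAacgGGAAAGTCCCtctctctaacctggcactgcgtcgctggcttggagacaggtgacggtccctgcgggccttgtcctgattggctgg

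For the other heavy chain and the loading genes, 30 bases around each match are shown, since these are the genes in which the ISRE and the κB consensus occur apart or together. They come from chr6:29723268-29723297 (HLA-F, plus), chr6:32853816-32853845 and chr6:32853757-32853786 (TAP1, minus), chr6:32838778-32838807 (TAP2, minus), and chr6:33314115-33314144 and chr6:33314079-33314108 (TAPBP, minus). Capitals again mark the matched bases, and an ISRE on the opposite strand reads as TTTC repeats.
HLA-F ISRE: ctccccagagTTTCTCTTTCtctcccaacc
TAP1 ISRE: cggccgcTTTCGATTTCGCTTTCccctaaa
TAP1 κB: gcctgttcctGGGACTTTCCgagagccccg
TAP2 ISRE: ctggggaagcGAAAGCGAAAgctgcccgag
TAPBP κB: taaccagagcGGGGATTTCCaccgcccctc
TAPBP ISRE: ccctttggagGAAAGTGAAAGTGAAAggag

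Within 250 bases upstream, a κB consensus was found in 5 of the 7 genes with a RefSeq start (HLA-B, HLA-C, B2M, TAP1 and TAPBP), against 9.96% of 35116 RefSeq promoters of the same length. An ISRE was found in 5 of 7 (HLA-F, B2M, TAP1, TAP2 and TAPBP), against 3.02% of promoters. B2M, TAP1 and TAPBP held both. In these 3 genes the ISRE consists of 2 overlapping matches, in HLA-B the κB match of 2, and no κB match overlapped an ISRE. A GAS element (TTCNNNGAA), a motif known from interferon-γ responses, was found only before the second of 2 RefSeq starts of TAP1 (6.57% of promoters). The letters CCAAT, a box bound by NF-Y, occurred in 5 of 7 (32.0% of promoters) and TGACG, the core of the X2 box of class I promoters, in 4 of 7 (21.2%). A match describes the letters only and shows no binding.

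**Figure D1:**
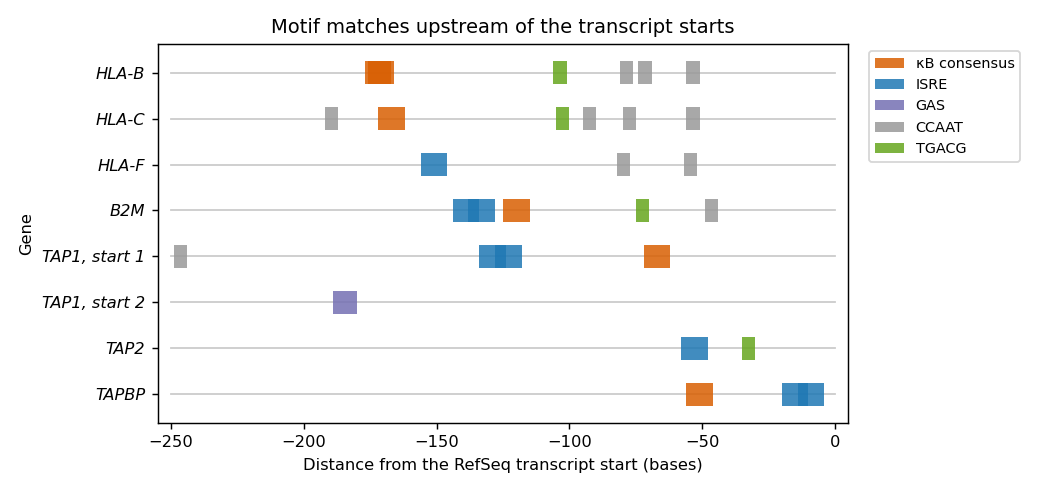
Motif matches on either strand in the 250 bases before the RefSeq transcript start (position 0, horizontal axis in bases) of 7 class I genes, with both starts of TAP1, and 1 colour per motif. The κB matches of HLA-B and HLA-C lie between positions −177 and −163 and those of TAP1 and TAPBP between −72 and −47.

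On the FPKM scale, all 9 genes had a higher level in each of the 3 TNF-α libraries than in any NC library, although B2M turned lower under quantile normalization. None passed the threshold of an adjusted p of 0.05 in the comparison of all 6 libraries (limma on log2(FPKM + 1), Benjamini-Hochberg over 12136 genes). FPKM is the number of fragments scaled to the length of a gene's exons and to the size of the library. The size used was 0.69 and 0.76 of the reads in genes for TNF-α replicates 2 and 3, against 0.92 to 0.96 elsewhere. FPKM levels in those replicates are thus scaled up relative to reads in genes. Their FPKM summed to 463340 and 408175 over all genes, against 256373 to 266716 in the other libraries. Of all genes tested, 0.717% were called higher and 14.8% were higher in every TNF-α library than in every NC library. The median log2 fold change of the 9 genes was 0.82, and that of all 12136 genes was 0.04. Without adjustment, 8 of the 9 had a limma p under 0.05, as had 2942 of the 12136. In bulk RNA, more expressing cells and more RNA per cell cannot be told apart.

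**Figure D2:**
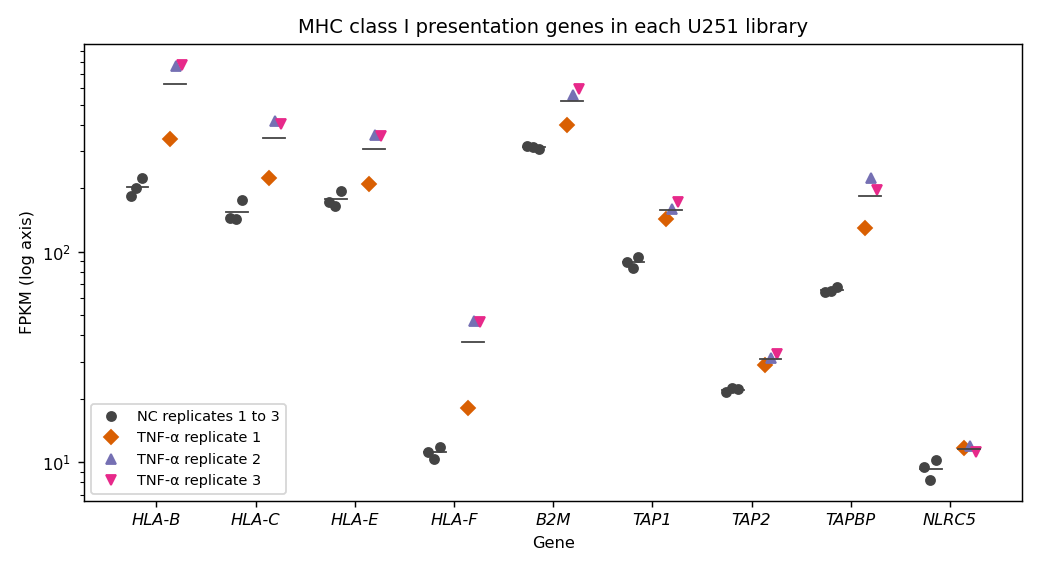
FPKM (log axis) of the 9 class I genes in each of the 6 libraries, with 1 symbol per library and a short line at each group's mean. In every gene the TNF-α symbols lie above all NC circles, and for the heavy chains TNF-α replicate 1 lies between NC and the other 2 TNF-α libraries.

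Among the heavy chains, HLA-B, a classical chain that presents peptides to CD8 T cells, was measured at 183, 201 and 225 FPKM in the NC libraries and at 341, 766 and 774 FPKM in the TNF-α libraries, in replicate order here and below. Its group means were 203 ± 21.1 and 627 ± 247 FPKM (SD, n = 3 each), and its log2 fold change was 1.53 ± 0.36 (SE, limma adjusted p = 0.149). TNF-α replicate 1 reached less than the level of the other treated libraries and still lay above the highest control. HLA-C, the second classical chain and the main ligand of killer-cell immunoglobulin-like receptors, was at 145, 143 and 175 FPKM in NC and at 223, 418 and 404 FPKM with TNF-α. Its means were 154 ± 18.2 and 348 ± 109 FPKM (SD, n = 3) with a log2 fold change of 1.12 ± 0.29 (SE, limma adjusted p = 0.175). The groups did not overlap, and the treated libraries spread far more widely than the controls.

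HLA-E, which displays leader peptides of other class I chains to the receptor NKG2A on natural killer cells, was at 173, 166 and 195 FPKM in NC and at 211, 359 and 356 FPKM with TNF-α. The means were 178 ± 15.4 and 309 ± 84.8 FPKM (SD, n = 3) and the log2 fold change was 0.75 ± 0.26 (SE, limma adjusted p = 0.195). TNF-α replicate 1 exceeded the highest NC library by little. HLA-F, a nonclassical chain of restricted peptide binding, was much lower than the others, at 11.1, 10.4 and 11.8 FPKM in NC and 18.1, 46.9 and 46.4 FPKM with TNF-α. Its means were 11.1 ± 0.725 and 37.1 ± 16.4 FPKM (SD, n = 3) and its log2 fold change was 1.54 ± 0.37 (SE, limma adjusted p = 0.158). In ratio of means HLA-F differed most of the 9 genes, 3.34-fold, followed by HLA-B at 3.09-fold and TAPBP at 2.79-fold.

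B2M, the light chain shared by all class I molecules, was the most abundant of the 9 genes in NC, at 320, 315 and 309 FPKM, and was at 402, 558 and 592 FPKM with TNF-α. The means were 314 ± 5.42 and 517 ± 101 FPKM (SD, n = 3), with a log2 fold change of 0.70 ± 0.21 (SE, limma adjusted p = 0.195). The controls differed little among themselves, and every treated library lay above them.

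Of the transporter genes, TAP1, which encodes one chain of the TAP peptide pump, was at 89.7, 83.5 and 94.2 FPKM in NC and at 143, 160 and 173 FPKM with TNF-α. Its means were 89.1 ± 5.35 and 159 ± 14.9 FPKM (SD, n = 3), with a log2 fold change of 0.82 ± 0.16 (SE, limma adjusted p = 0.0968). TNF-α replicate 1 lay close to the other 2 treated libraries for this gene. TAP2, the other chain of the pump, was at 21.5, 22.4 and 22.1 FPKM in NC and at 28.9, 31.1 and 32.5 FPKM with TNF-α. Its means were 22.0 ± 0.438 and 30.8 ± 1.83 FPKM (SD, n = 3) and its log2 fold change was 0.47 ± 0.12 (SE, limma adjusted p = 0.183). The difference was small and regular, with all 3 treated libraries near each other.

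TAPBP, which encodes tapasin, was at 64.1, 64.7 and 68.0 FPKM in NC and at 129, 224 and 196 FPKM with TNF-α. Its means were 65.6 ± 2.10 and 183 ± 48.9 FPKM (SD, n = 3), with a log2 fold change of 1.43 ± 0.24 (SE, limma adjusted p = 0.0634), the smallest adjusted p among the 9 genes. TAPBP was also the one with the largest ratio in TNF-α replicate 1, 1.97 times the NC mean, against 3.42 and 2.99 times in replicates 2 and 3. NLRC5, the transactivator of class I genes, was at 9.46, 8.21 and 10.2 FPKM in NC and at 11.6, 11.9 and 11.2 FPKM with TNF-α. Its means were 9.31 ± 1.03 and 11.6 ± 0.365 FPKM (SD, n = 3) and its log2 fold change was 0.29 ± 0.13 (SE, limma adjusted p = 0.195). It was the only member with an unadjusted limma p above 0.05, at 0.0646, and its treated libraries lay close together.

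The recovered reads behind these values were many. B2M had 60285 to 87866 reads per library, HLA-B 20104 to 60552, TAPBP 10730 to 29365 and TAP1 13158 to 22076. The lowest counts were 1478 for HLA-F, 3335 for NLRC5 and 4542 for TAP2. Counting error was at most 2.60% of the level for any gene and library, against a spread between treated replicates of 19.6% to 44.3% (SD over mean) for the heavy chains, B2M and TAPBP. It came close to the spread for TAP2 in NC, at 1.48% against 1.99%, and for NLRC5 with TNF-α, at 1.73% against 3.16%.

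By mean level in NC, B2M was followed by HLA-B, HLA-E, HLA-C, TAP1, TAPBP, TAP2, HLA-F and NLRC5. HLA-B and HLA-E overlapped in their libraries, as did HLA-E and HLA-C, and every other pair of neighbours in this order was apart. By mean level with TNF-α, HLA-B came before B2M, HLA-C before HLA-E, TAPBP before TAP1 and HLA-F before TAP2. In TNF-α replicate 1, HLA-B (341 FPKM) was below B2M (402), TAPBP (129) below TAP1 (143) and HLA-F (18.1) below TAP2 (28.9), as in NC. HLA-C (223 FPKM) was above HLA-E (211) in that library too. From HLA-B through B2M, HLA-C, HLA-E and TAPBP to TAP1 each neighbour overlapped the next, as did HLA-F and TAP2. By the spread of replicates, the order with TNF-α is thus less certain than that in NC. FPKM divides by merged exon length, 4342 bases for HLA-F and 6390 for TAP2, against 1635 and 5684 in their longest transcripts. In both groups the order of genes also depends on the length used, which replicate spread does not show and which was not tested.

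Ratios taken within a library show that the 9 genes did not differ by 1 common factor. Of the summed FPKM of HLA-B, HLA-C, HLA-E and HLA-F, which leaves out further class I genes, HLA-B made up 35.7%, 38.7% and 37.0% in NC and 43.0%, 48.2% and 49.0% with TNF-α. HLA-E made up 33.8%, 31.9% and 32.1% in NC and 26.6%, 22.6% and 22.5% with TNF-α. Thus HLA-B took a larger and HLA-E a smaller share in each treated library, TNF-α replicate 1 included. The share of HLA-F was 1.95% to 2.17% in NC and 2.29% to 2.95% with TNF-α, also without overlap. After the correction for GC content and length described below, a check added after the data were seen, these 3 shares still did not overlap, with HLA-B at 35.8% to 38.5% in NC and 43.5% to 47.5% with TNF-α and HLA-E at 31.9% to 33.4% and 26.3% to 28.0%. That of HLA-C was 27.5% to 28.9% in NC and 25.6% to 28.1% with TNF-α, and there the groups overlapped.

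**Figure D3:**
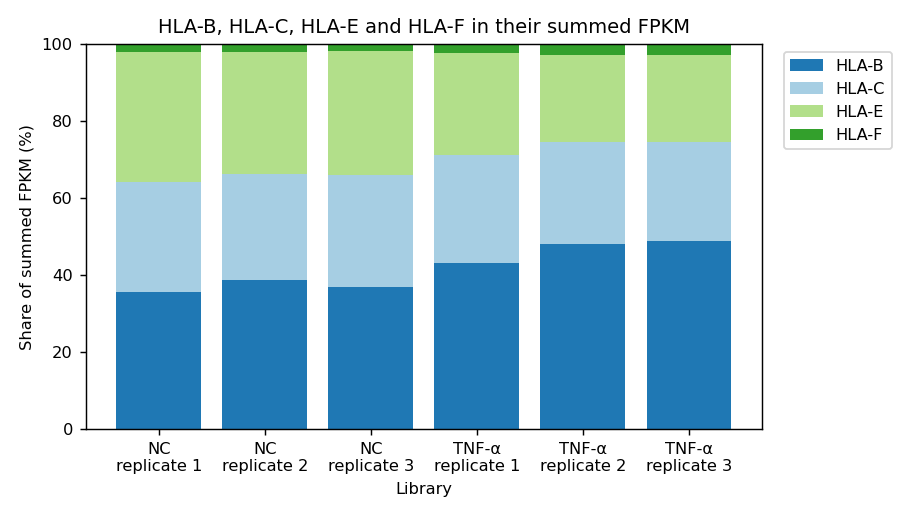
Share of each of the 4 heavy chain genes in their summed FPKM (vertical axis, percent) in the 6 libraries (horizontal axis), as stacked bars that reach 100%. The HLA-B part is 35.7% to 38.7% in NC and 43.0% to 49.0% with TNF-α, and the HLA-E part is 31.9% to 33.8% and 22.5% to 26.6%.

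The summed FPKM of the 4 heavy chains was 512, 520 and 607 in NC and 793, 1590 and 1579 with TNF-α. B2M over this sum was 0.624, 0.605 and 0.508 in NC and 0.507, 0.351 and 0.375 with TNF-α, lower in each treated library, with TNF-α replicate 1 only just below the lowest control. After the GC and length correction this ratio overlapped, with log2 differences from the NC mean of −0.21, 0.13 and 0.05 in TNF-α replicates 1, 2 and 3, so that no direction is given for it. TAP1 over TAP2, the chains of 1 heterodimer, was 4.17, 3.73 and 4.26 in NC and 4.95, 5.14 and 5.31 with TNF-α. TAPBP over TAP1 was 0.715, 0.775 and 0.722 in NC and 0.902, 1.40 and 1.14 with TNF-α. Both FPKM ratios were higher in each treated library than in any control. After the correction TAPBP over TAP1 still was, at 0.27, 1.14 and 0.82 above the NC mean on the log2 scale, whereas TAP1 over TAP2 was at 0.31, −0.64 and −0.49 and turned direction in replicates 2 and 3. The heavy chain sum over TAP1 overlapped between the groups, at 5.71 to 6.45 in NC and 5.55 to 9.95 with TNF-α. These ratios were described and not tested.

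The size of the difference depended on the treated library. The median log2 difference of the 9 genes from their NC means was 0.53 for TNF-α replicate 1, 1.01 for replicate 2 and 1.00 for replicate 3. HLA-F stood at 0.66 in replicate 1 against 1.98 and 1.97, and HLA-B at 0.75 against 1.92 and 1.93. TAP1, at 0.68 against 0.84 and 0.95, and NLRC5, at 0.30 against 0.33 and 0.24, varied far less among the treated libraries.

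With TNF-α replicate 1 as the only treated library, 6 of the 9 genes passed the threshold (HLA-B, HLA-F, B2M, TAP1, TAP2 and TAPBP), against 3.70% of genes called higher in that comparison, in which the lone library is assumed to vary like the controls. TAPBP was at 0.96 (limma adjusted p = 0.00137) and TAP1 at 0.68 (limma adjusted p = 0.0093) on the log2 scale there, and HLA-E at 0.25 (limma adjusted p = 0.24). Without TNF-α replicate 1, all 9 passed, but so did 42.6% of all genes as higher, and the count of 9 is read against that share. The log2 fold changes there ran from 0.29 for NLRC5 to 1.98 for HLA-F.

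The class I genes also differ in base composition and length, the properties with which TNF-α replicates 2 and 3 departed from the controls. A smooth fit on GC content and length of each gene's longest transcript took up part of the variance in how each library differed from NC. This part was 39.3% and 38.2% for TNF-α replicates 2 and 3, 1.41% for TNF-α replicate 1, and 3.41% to 16.7% for single NC libraries. The longest transcript of HLA-C is 62.7% G or C, that of HLA-B 59.0% and that of B2M 40.6%, against a median of 47.9% over the tested genes. In length the longest transcripts run from 1547 bases for HLA-B to 6822 for NLRC5, with a median of 3363 over the tested genes.

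After these properties were fitted and removed in each library, the median of the 9 genes was 0.55, 0.71 and 0.79 in TNF-α replicates 1, 2 and 3. The medians of the 3 treated libraries thus lay nearer to each other. For TAP1, at 0.66, 0.16 and 0.38, for TAP2, at 0.35, 0.80 and 0.87, and slightly for NLRC5, the libraries lay further apart than before. In each of the 9 genes they remained above every NC library, as in 15.8% of 12131 genes on this scale. HLA-B, HLA-F and TAPBP passed the threshold, against 1.78% of genes called higher, with log2 fold changes of 0.92, 0.96 and 1.15 (limma adjusted p = 0.0191, 0.0226 and 0.0082). HLA-C was at 0.44 and TAP1 at 0.40, less than before the correction, and TAP2 was at 0.67, more than before. How much of the difference in replicates 2 and 3 belongs to composition and how much to TNF-α was not tested.

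**Figure D4:**
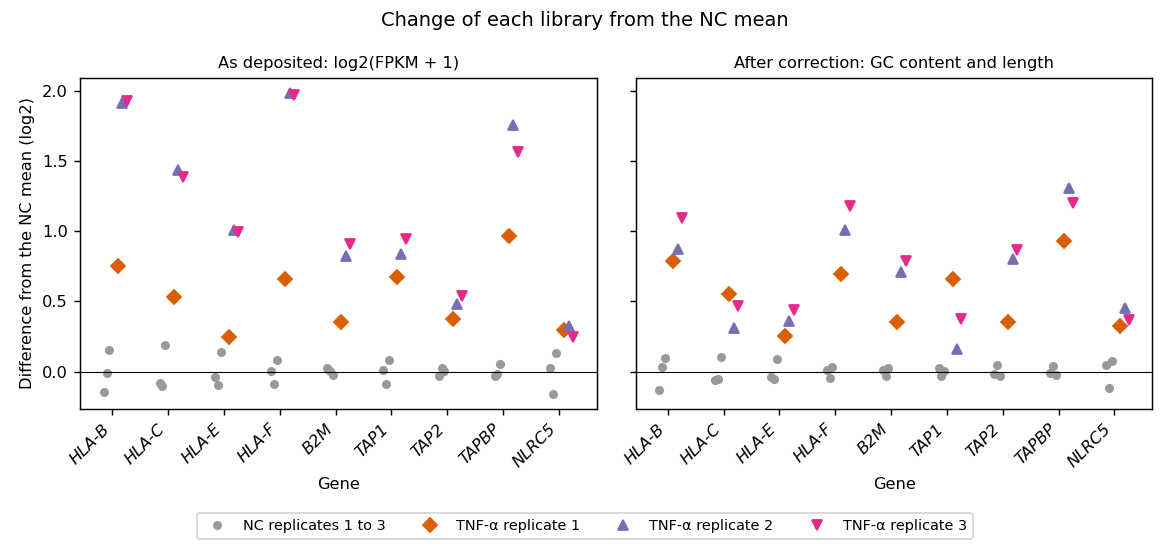
Difference of each library from the NC mean on the log2 scale (vertical axis) for the 9 class I genes, on the deposited values (left) and after a correction for GC content and length (right). On the left, HLA-B, HLA-C, HLA-E, HLA-F, B2M and TAPBP separate TNF-α replicate 1 from replicates 2 and 3, and on the right the medians of the 3 libraries are 0.55, 0.71 and 0.79.

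The other ways of processing moved the values as well. Per-library rescaling to TPM lowered the median of all genes to −0.42 and that of the 9 genes to 0.32, with NLRC5 at −0.18 and TAP2 at −0.020. Relative to the median of all genes, TAP2 was at 0.40 and NLRC5 at 0.24 under TPM, close to 0.42 and 0.25 on the FPKM scale. Quantile normalization put B2M at −0.12, HLA-E at 0.04, TAP2 at 0.18, NLRC5 at 0.23 and TAP1 at 0.25, and the other members at 0.43 to 1.27. Under it the median of the 9 genes lay 0.25 above that of all genes, against 0.78 on the FPKM scale. TAPBP was past the threshold under TPM (0.94, limma adjusted p = 0.0185), quantile normalization (0.89, limma adjusted p = 0.0244) and limma-voom on recovered reads (1.18, limma adjusted p = 0.0289), and it ranged from 0.89 to 1.66 over 19 alternatives. HLA-B ranged from 0.73 to 1.92 and HLA-F from 0.66 to 1.98 over the same alternatives.

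**Figure D5:**
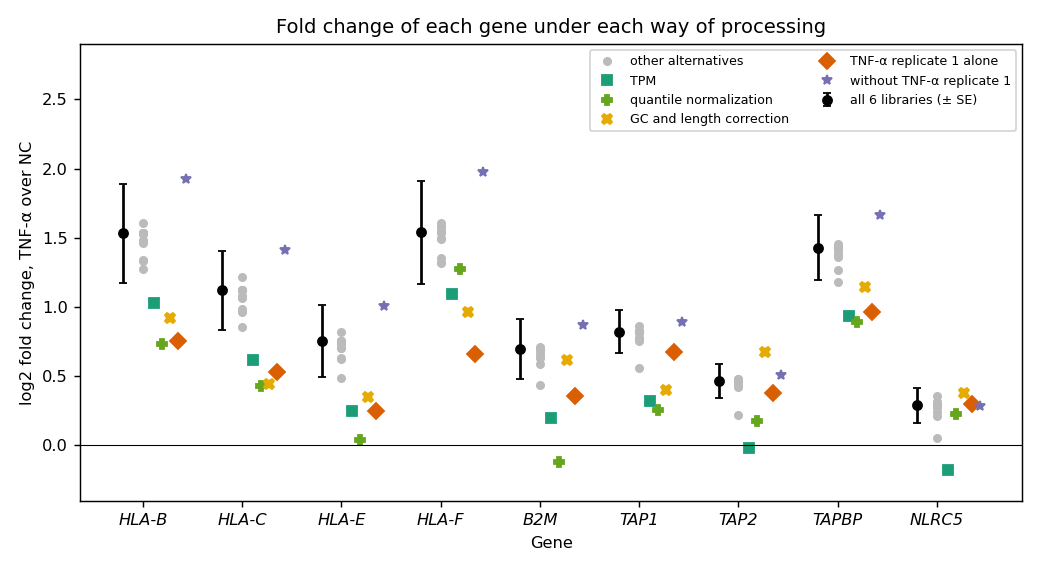
log2 fold change (TNF-α over NC, vertical axis) of the 9 class I genes, with the value from all 6 libraries and its standard error in black and 1 symbol for each alternative. TAPBP stays between 0.89 and 1.66, whereas B2M, TAP2 and NLRC5 cross 0 under 1 alternative each, for TAP2 and NLRC5 under TPM, which lowers the median of all genes to −0.42.

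Part of the reads of some of these genes could belong to neighbours. In the annotation the merged exons of TAP2 overlap those of another gene over 32.3% of their length, those of HLA-F over 28.5%, of HLA-B over 18.9% and of TAP1 over 9.49%, and whether the counting used strand is not given in the sources used here. Windows of 100 bases that also occur in transcripts of another gene made up 30.3% of TAP2, 15.3% of HLA-F, 12.9% of HLA-B, 7.26% of TAP1, 0.491% of HLA-E, 0.126% of HLA-C and none of B2M, TAPBP and NLRC5. The largest partners of TAP2 and HLA-B were at 0 to 0.0559 FPKM, while HLA-B also overlaps HLA-C over 1.40% of the exons of HLA-C, HLA-F-AS1 was at 0.452 to 0.722 FPKM, and PSMB8-AS1, which overlaps TAP1, was at 1.26 to 3.50 FPKM. Levels of TAP2, HLA-F, HLA-B and TAP1 are uncertain at least to that extent. The overlap of TAP2 is with a gene on the same strand, which a strand setting cannot separate. The windows are exact matches in the reference, and differences of U251 alleles from it were not examined. They therefore set no upper limit on reads shared among the heavy chains. How reads that match several genes were handled is not given in the sources used here.

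Peptide supply, the proteasome and aminopeptidase genes upstream of TAP, was measured in 14 of 14 listed genes. None passed the threshold, 11 had a log2 fold change above 0, and 6 were higher in every TNF-α library, with a median of 0.91. Over all 12136 tested genes 6432 were above 0, 14.8% were higher in every TNF-α library and the median was 0.04. The named subunits of the constitutive proteasome, chosen for their level, were PSMB6 at 104, 96.4 and 106 FPKM in NC and 90.8, 336 and 270 FPKM with TNF-α, and PSMB7 at 84.3, 73.8 and 80.9 against 82.2, 287 and 227 FPKM. Their groups overlapped, since TNF-α replicate 1 lay within or below the controls. The inducible subunits, named here after their values were seen, had non-overlapping groups, as had 14.8% of all genes in that direction. For PSMB8, TNF-α replicate 1 exceeded the highest control by little. PSMB8 was at 53.7, 50.0 and 52.0 FPKM in NC and 56.0, 201 and 164 FPKM with TNF-α, PSMB9 at 23.9, 19.0 and 23.0 against 29.4, 82.0 and 78.2 FPKM, and PSMB10 at 4.96, 4.08 and 5.11 against 7.61, 20.7 and 19.7 FPKM. Their log2 fold changes were 1.23, 1.35 and 1.46, and those of the proteasome activator genes PSME1 and PSME2 were 1.20 and 1.32 (limma adjusted p between 0.165 and 0.195 for the 5 genes).

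Of 9 listed folding and loading partners 8 were tested, none passed, 5 were above 0, against 6432 of all 12136 tested genes, and the median was 0.12. CALR, the chaperone calreticulin of the loading complex, was at 430, 410 and 451 FPKM in NC and 452, 615 and 606 FPKM with TNF-α, a log2 fold change of 0.36 (limma adjusted p = 0.23). HSPA5, the chaperone BiP, was at 227, 215 and 214 against 236, 267 and 256 FPKM, a log2 fold change of 0.21 (limma adjusted p = 0.328). For both, TNF-α replicate 1 exceeded the highest control by little. Both turned below 0 under TPM and quantile normalization.

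In the list of transcriptional regulators of class I genes, 20 of 21 were tested and 3 rose past the threshold, against 0.717% of all genes, with a list median of 0.06. Of the 20, 7 were higher in every TNF-α library and 2, RFXAP and ATF1, lower, against 14.8% and 15.3% of all genes. RELB, a subunit of the noncanonical NF-κB dimer, was at 6.31, 5.90 and 8.34 FPKM in NC and 46.8, 130 and 105 FPKM with TNF-α, and rose by 3.48 on the log2 scale (limma adjusted p = 0.0185). NFKB2, its partner p100/p52, was at 17.0, 15.8 and 18.7 against 71.9, 150 and 129 FPKM and rose by 2.63 (limma adjusted p = 0.0173). IRF1, a factor that binds the ISRE, was at 4.61, 5.18 and 5.74 against 11.9, 20.2 and 19.7 FPKM and rose by 1.53 (limma adjusted p = 0.0429). All 3 were higher in each treated library than in any control. Leaving out any 1 library other than TNF-α replicate 1 ended each of these calls, with limma adjusted p of 0.0541 to 0.151 for RELB, 0.0541 to 0.152 for NFKB2 and 0.157 to 0.291 for IRF1. The list was made with earlier results of these data known, and its count is not independent evidence.

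Among interferons and their receptors, 8 of 16 genes were tested and none passed. Of the 8, 3 (IFNGR1, IFNGR2 and TYK2) were higher in every TNF-α library and 1 (IFNLR1) lower, against 14.8% and 15.3% of all genes. IFNG, the interferon best known to raise class I genes, had 0 reads in all 6 libraries, and IFNB1 had 14 to 37 reads per library, with overlapping groups. Of the kinases bound to interferon receptors, JAK1 was at 20.7, 19.7 and 21.0 FPKM in NC and 23.1, 9.41 and 9.72 FPKM with TNF-α. TYK2 was at 23.0, 22.2 and 26.3 against 27.3, 36.1 and 34.6 FPKM, a log2 fold change of 0.43 (limma adjusted p = 0.195). JAK1 was high in TNF-α replicate 1 and low in the other treated libraries, and TYK2 was higher in all 3.

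Of 13 other heavy chain and class I-like genes 9 were tested, and none passed the threshold. Of the 9, 7 were above 0, against 6432 of all 12136 tested genes, and the median was 0.10. MICA, a ligand of the receptor NKG2D that presents no peptide, was at 45.6, 41.4 and 43.4 FPKM in NC and 38.3, 79.3 and 78.2 FPKM with TNF-α, with overlapping groups. For genes of class I turnover, 11 of 11 were tested, none passed, 8 were above 0, read against the same share of all genes, and the median was 0.15. TMEM127 was at 18.4, 17.7 and 19.5 against 20.7, 24.1 and 21.2 FPKM. UBE2J2, a ubiquitin-conjugating enzyme of endoplasmic reticulum degradation, was at 20.7, 21.2 and 22.7 against 20.5, 49.0 and 43.1 FPKM. TNF-α replicate 1 separated from the other 2 treated libraries for MICA and UBE2J2 and not for TMEM127.

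The class II pathway, which loads peptides from outside the cell, was nearly silent. Of 13 listed genes only CTSS, the lysosomal protease cathepsin S, passed the filter on low values, and it rose by 2.25 on the log2 scale (limma adjusted p = 0.00134). It was at 0.471, 0.361 and 0.442 FPKM in NC and 5.95, 5.12 and 6.26 FPKM with TNF-α, a like level in all 3 treated libraries. CTSS thus reached 1 FPKM only with TNF-α and passed the filter through the group in which it is high. That it alone of the list was tested and called is therefore no separate evidence. CIITA, the class II transactivator and a relative of NLRC5, had 12 to 64 reads per library and did not reach the filter.

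Neighbours in the MHC region, whatever their function, were compared with the class I genes. Of 304 other genes between HLA-F and TAPBP, 81 were tested, with a median log2 fold change of 0.46 against 0.82 for the 9 class I genes, and 20 were higher and 5 lower in every TNF-α library, against 14.8% and 15.3% of all genes. Of these, IER3, an NF-κB target known for cell survival, rose by 3.16 (limma adjusted p = 0.0128) and TNF, the gene of the cytokine itself, by 1.52 (limma adjusted p = 0.0432). TNF had a mean of only 0.157 FPKM in NC and of 2.39 FPKM with TNF-α. It passed the filter on low values through the treated libraries alone, so its call is no separate evidence. The call of IER3 was lost without any 1 NC library or TNF-α replicate 3 (limma adjusted p of 0.109 to 0.125), and that of TNF without any 1 library other than TNF-α replicate 1 (0.13 to 0.284). The median of these neighbours lay between that of all genes and that of the class I genes.

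The genes whose log2(FPKM + 1) followed the mean of the 9 standardised class I genes most closely over the 6 libraries were SLC8B1 (Pearson r = 0.9997), PPP1R18 (0.999), BMS1 (0.999), TMEM132A (0.998) and VPS37C (0.998). The members' own r with that mean ran from 0.842 for NLRC5 to 0.993 for TAPBP. With 6 points that share their treatment and the shift of 2 libraries such values are common, and 647 of 12127 other genes, 5.34%, had an r of at least 0.95.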

How the data were processed

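Polyadenylated RNA was made into libraries with the NEBNext Ultra RNA kit. The authors deposited 1 table of FPKM values per gene, and per the file headers it also holds 6 columns of other per-sample values, which were not used. The submitters' processing notes name HISAT2 2.0.5, StringTie 1.3.3b, featureCounts 1.5.0, GATK 3.7, DESeq2 and edgeR, the last 2 without version and none with a stated role. Gene identifiers, coordinates and lengths of all 58735 genes matched GENCODE 29 (GRCh38), and the FPKM values gave back whole reads (within 0.1) in 100% of cases. Depth was 31992167 to 37897044 reads in genes per library.

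Values were analysed as log2(FPKM + 1) for 12136 genes with at least 1 FPKM in at least 3 libraries, using limma 3.58.1 in R 4.3.3 with NC and TNF-α as groups, Benjamini-Hochberg adjustment over all tested genes and a threshold of 0.05. Fold changes are on that scale and understate changes of low genes. The script was tested on simulated data. Shared sequence and promoters were searched in Python 3.11.15.

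The members, lists and tests were chosen with earlier results of these data known. Named were all 9 members, up to 6 genes past the threshold of each list or, with none, the 2 of highest mean FPKM, and the 5 genes most like the members. 1 gene that this rule names is not reported here. Replicate numbers are shared by both groups, but same-numbered libraries did not deviate together (r = −0.01, −0.18 and 0.12), so no pairing was used. Alternatives were the pseudocount, filter, TPM, quantile normalization, median centring, correction for GC content and length by splines, robust estimation, a replicate block, limma-voom on recovered reads, protein-coding genes only, leaving out each library, and TNF-α replicate 1 alone.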

Additional observations from a re-analysis of the deposited data

How the results depend on the processing

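Over 19 alternatives, 569 fold changes of named genes were compared and 477 kept their direction and side of the threshold. The number of genes past the threshold, 123 in the comparison of all 6 libraries, was 58 with no filter, 79 with at least 5 FPKM, 58 under TPM, 185 under quantile normalization, 338 after the correction for GC content and length, 77 with limma-voom and 732 with TNF-α replicate 1 alone. Of the 9 members, 1 passed under TPM, 1 under quantile normalization, 1 with limma-voom, 3 after the correction and 6 with TNF-α replicate 1 alone, and their median log2 fold change there was 0.32, 0.25, 0.56, 0.62 and 0.53. Leaving out 1 library gave 10 to 9630 genes and 0 to 9 members, where 9630 and 9 came without TNF-α replicate 1. With the replicate block, 24 genes and 0 members passed. TNF had no value with at least 5 FPKM. The cause of these shifts was not tested.

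TPM lowered the median of all genes to −0.42, and signs below under TPM are not relative to it. Signs turned for B2M (−0.12, quantile), NLRC5 (−0.18, TPM), TAP2 (−0.020, TPM), TYK2 (−0.057, TPM), CALR (−0.14 under TPM, −0.51 quantile, −0.091 corrected), HSPA5 (−0.29 under TPM, −0.47 quantile, −0.056 limma-voom) and TMEM127 (−0.26 under TPM, −0.0037 quantile, −0.021 limma-voom). With TNF-α replicate 1 alone they turned for JAK1 (0.17), MICA (−0.18), PSMB6 (−0.17) and UBE2J2 (−0.070). RELB and NFKB2 lost their call under 7 alternatives and IRF1 under 8, among them the replicate block and no filter. With 3 libraries a group, 2 of them shifted in composition, depth is not the limit for the members.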
